A study of Mus musculus with 36 samples.

Results

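Bid and 9 further genes of the Bcl-2 family, Bax, Bak1, Bcl2, Bcl2l1, Mcl1, Bcl2l11, Bbc3, Pmaip1 and Bmf, were followed in the spleens of 36 mice. A probe set, the group of short oligonucleotides that reads 1 transcript on the array, was taken as a member when the annotation named 1 of these genes and no other. This gave 30 probe sets for 9 of the 10 genes, among 45101 probe sets on the array, and Bax was not analysed here. Of the 30, 26 passed the limit on low mean level that left 27022 probe sets for testing, and each of the 9 genes kept at least 1. The 4 that did not pass were 1425716_s_at of Bak1, 1426050_at of Bcl2l1, and 1422995_at and 1458325_x_at of Bmf. Bid, and with it the family, was chosen by its difference in level between arthritic and non-arthritic spleens in these data, so group differences of the members are given below as descriptions without a test.

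The mice belonged to an F2 generation and were 4 months old, and 1 spleen per mouse was read on 1 Affymetrix array. The titles divide them into 18 arthritic (ART) and 18 non-arthritic (NON) animals, and the series title describes arthritic mice that lack the interleukin 1 receptor antagonist. The labels give no genotype, strain, sex or arthritis score for any mouse. Whether the non-arthritic mice carry the same deletion is not stated in the sources used here, and neither is the cross. A whole spleen mixes many cell types, and in such RNA a smaller number of cells of a type and less RNA per cell cannot be told apart. All levels below are log2(intensity + 16), a scale that understates the change of dim probe sets, and a level of 1 probe set is not comparable with that of another.

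The Bcl-2 family sets whether a cell's mitochondria release the factors that start the caspase cascade. Bcl2, Bcl2l1 (Bcl-xL) and Mcl1 encode survival proteins, which hold the effectors Bak1 and Bax inactive, and BH3-only proteins such as Bid, Bcl2l11 (Bim), Bbc3 (Puma), Pmaip1 (Noxa) and Bmf bind and oppose the survival proteins or activate the effectors. Bid links this pathway to the death receptors, since caspase-8 cuts it into an active fragment. In blood-forming tissue Mcl1 is needed by lymphocytes and many other cells, Bcl2 by mature lymphocytes, and Bcl2l1 by maturing red cell precursors, while Bim limits the number of lymphocytes.

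Short stretches before the start of 4 members show which sequence features lie beside genes whose levels are described below. They were read from the RefSeq promoter table on build GRCm38.p6, which lists 9 of the 10 genes with 16 starts. These 9 include Bax and lack Pmaip1, so they are not the 9 genes with probe sets. Motifs were searched on both strands in the 250 bases before each start, and capitals mark the matches. The strings searched were the GC box GGGCGG, the CCAAT box CCAAT, the GATA string AGATAA, the forkhead string GTAAACA and the CRE half-site TGACG, none of which contains another.
Bid, chr6:120916869-120916898, minus strand, 74 to 45 bases before the start: cagtcggaGGGCGGagcatccggaGGGCGG
Bcl2l1, chr2:152828513-152828542, minus strand, 53 to 24 bases before 1 of 3 starts: attgtgacccaaAGATAAagagagcagagg
Mcl1, chr3:95658689-95658718, plus strand, 32 to 3 bases before the start: ctccggaaacgcCCGCCCctttcccctttt
Bmf, chr2:118549828-118549857, minus strand, 171 to 142 bases before 1 of 3 starts: ctctacagcgctCCAATtgcgcttcTGACG
The Bid stretch holds a pair of GC boxes and the Mcl1 stretch 1 on the other strand. A GC box was found in 9 of the 16 members' windows, beside 32.7% of all 32851 promoter windows of this length. These windows belong to 6 of the 9 genes, since a gene can have several starts. Windows of nearby starts can overlap, as for Bbc3. The CCAAT box was found in 5 of 16, beside 33.8% of all, and TGACG in 3 of 16, beside 17.8%. The AGATAA string was found in 1 of 16, that of Bcl2l1 printed above, beside 9.99%, and GTAAACA in 2 of 16, beside 3.17%. These matches describe letters and do not show that a factor binds there.

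Differences between sets of arrays touch most members and come first. The levels of the control RNAs that are added before hybridisation divided the arrays into 3 sets, here called control sets. Set A held 9 arthritic and 4 non-arthritic arrays, set B 6 and 10, and set C 3 and 4, so the sets were unevenly spread over the groups. Their cause is not recorded in the labels. The 3' to 5' signal ratio of Gapdh, a measure of RNA integrity and labelling, averaged 0.751 ± 0.059 (SD, n = 13) in set A, 1.004 ± 0.091 (SD, n = 16) in set B and 0.911 ± 0.061 (SD, n = 7) in set C. Over the groups it was 0.854 ± 0.143 (SD, n = 18) for arthritic against 0.934 ± 0.120 (SD, n = 18) for non-arthritic mice. Transcripts of pancreatic acinar cells stood far above the rest in arthritic spleen 8 and non-arthritic spleens 5 and 6, at mean levels of 12.84, 13.45 and 11.80 against at most 7.89 elsewhere. Markers of the tissue were present throughout: the B cell list averaged between 11.76 and 12.67 over all spleens, and the erythroid list between 11.23 and 13.26.

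Bid was higher on average in arthritic spleens by the probe set 1417045_at, which had the highest mean of its 3 probe sets and represents the gene below. Its level ranged from 10.10 to 10.70 with a median of 10.45 in arthritic mice, and from 9.61 to 10.50 with a median of 10.09 in non-arthritic mice. All 18 arthritic spleens lay above the non-arthritic median, but the groups overlapped, since non-arthritic spleens 2 and 5 stood at 10.50 and spleens 18 and 1 at 10.44 and 10.34. The mean was 10.43 ± 0.12 (SD, n = 18) against 10.09 ± 0.26 (SD, n = 18), a difference of 0.34 (SE 0.07), or 1.27-fold.

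The Bid difference was not the same size in each control set. In set A the arthritic spleens averaged 10.48 ± 0.10 (SD, n = 9) and the non-arthritic 10.38 ± 0.15 (SD, n = 4), a difference of 0.09. In set B the 6 arthritic spleens ranged from 10.24 to 10.46 and the 10 non-arthritic from 9.61 to 10.44, a difference of the means of 0.39, and in set C 10.36 ± 0.22 (SD, n = 3) and 10.01 ± 0.24 (SD, n = 4), a difference of 0.35. The arthritic mean thus varied little between sets, while the non-arthritic mean was highest in set A. Its 4 non-arthritic spleens 1, 2, 5 and 6 stood at 10.34, 10.50, 10.50 and 10.20, and of these 5 and 6 carried pancreatic transcripts and 1 and 2 did not. With the control set as a block the difference was 0.28 (SE 0.07), and without the 3 pancreas-bearing arrays and 1 array with a high actin 3' to 5' ratio it was 0.37.

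The other Bid probe sets gave a mixed picture. The probe set 1448560_at ranged from 7.95 to 9.71 with a median of 9.10 in arthritic spleens, and from 7.77 to 9.20 with a median of 8.43 in non-arthritic spleens. Its mean was 8.95 ± 0.51 (SD, n = 18) against 8.45 ± 0.41 (SD, n = 18), which is 0.50 (SE 0.15) or 1.41-fold higher, with 15 of 18 arthritic spleens above the non-arthritic median and the groups overlapping. Much of its range followed the control sets, with means of 9.27, 8.30 and 8.59 in sets A, B and C, and with the set as a block the difference was 0.27 (SE 0.09). Within sets A, B and C the differences were 0.33, 0.11 and 0.51, positive in each. The probe set 1447873_x_at, whose suffix marks probes that may also bind other transcripts, had means of 6.82 ± 0.54 (SD, n = 18) and 6.94 ± 0.51 (SD, n = 18) for the arthritic and the non-arthritic mice, which differ by -0.12 (SE 0.17). Only 8 of 18 arthritic spleens exceeded the non-arthritic median by it, and its range of 5.61 to 7.60 almost coincided with the 6.08 to 7.61 of the other group.

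**Figure D1:**
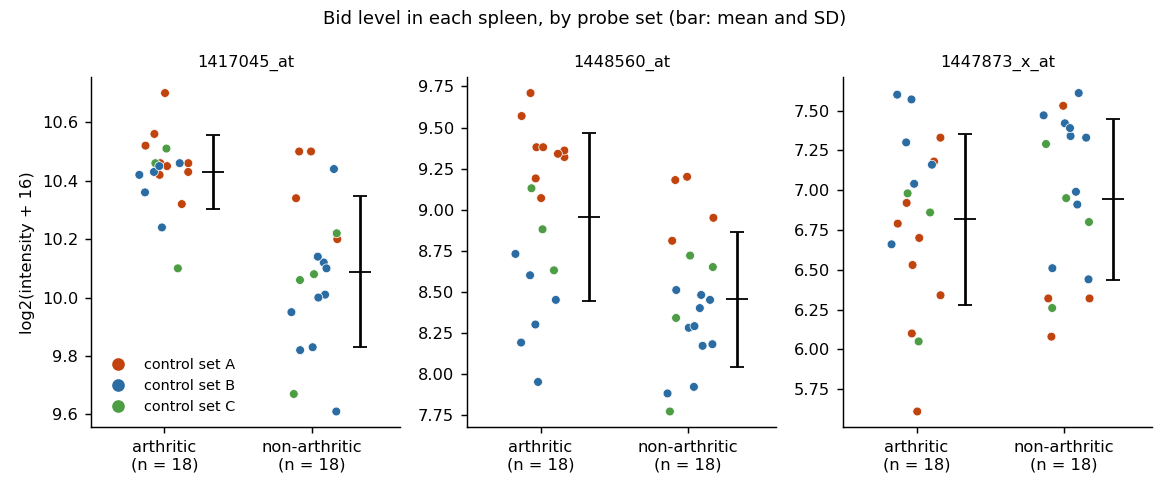
Level of Bid in each spleen by its 3 probe sets, as log2(intensity + 16), with arthritic and non-arthritic mice side by side (n = 18 each), points coloured by control set and bars giving the mean and SD. By 1417045_at the arthritic spleens cluster near 10.43 while the non-arthritic spread from 9.61 to 10.50; by 1448560_at the set A arrays lie high in both groups; by 1447873_x_at the groups coincide.

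Across the family, the group differences ran in both directions. Of 26 tested probe sets, 11 had a positive and 14 a negative difference between arthritic and non-arthritic spleens, and 1 was at 0.00, with a median of -0.03 beside 0.003 over all 27022 tested. Bid 1417045_at was the 1 member probe set among the 13 that passed an adjusted p of 0.05 as higher in limma, a moderated linear model, which is 0.0481% of all tested, and 0% passed as lower. Since this contrast chose Bid, nothing is read from that count. The count was 0 when any 1 of 27 of the 36 arrays was left out, when the control set was a block, with quantile normalisation, without the limit on low levels, without a trend in the variance, and by the Wilcoxon rank-sum test. No member probe set separated the groups without overlap, and neither did any other of the 27022 tested.

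**Figure D2:**
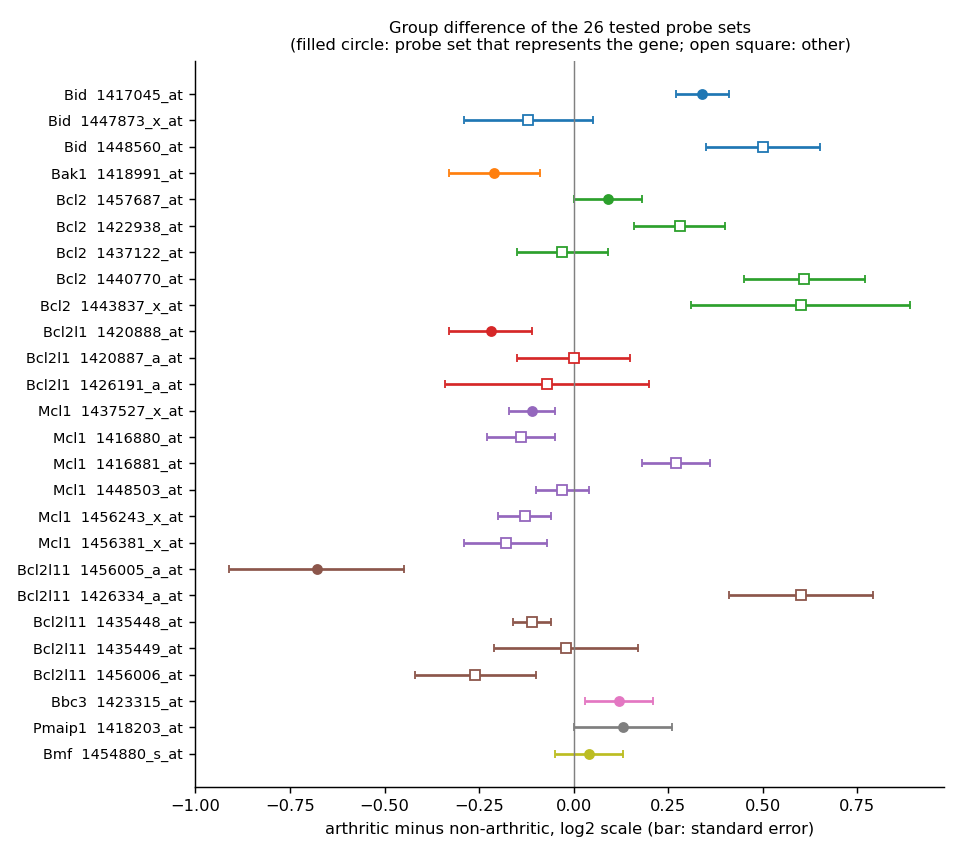
Difference of the group means (arthritic minus non-arthritic, log2 scale) of the 26 tested member probe sets, with bars of 1 standard error. Filled circles mark the probe set that represents the gene and open squares its others; the points lie on both sides of 0, from -0.68 for Bcl2l11 1456005_a_at to 0.61 for Bcl2 1440770_at.

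Among the other BH3-only genes, Bcl2l11, which encodes the activator Bim, had the widest differences and they disagreed in sign between its 5 probe sets. Its representative 1456005_a_at ranged from 10.24 to 12.49 with a median of 11.15 in arthritic spleens and from 10.57 to 13.08 with a median of 12.02 in non-arthritic spleens. The arthritic mean of 11.21 ± 0.65 (SD, n = 18) was 0.68 (SE 0.23) below the non-arthritic 11.88 ± 0.79 (SD, n = 18), or 0.63-fold, and only 2 arthritic spleens exceeded the non-arthritic median. The groups overlapped widely, and the difference was 0.04 within set A, -1.01 within set B and -0.33 within set C.

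A second Bcl2l11 probe set, 1426334_a_at, went the other way. It ranged from 6.64 to 8.59 with a median of 7.22 in arthritic spleens and from 5.74 to 8.04 with a median of 6.65 in non-arthritic spleens. The mean of 7.39 ± 0.49 (SD, n = 18) against 6.79 ± 0.68 (SD, n = 18) was 0.60 (SE 0.19) higher, 17 of 18 arthritic spleens lay above the non-arthritic median, and the difference was 0.62, 0.23 and 0.69 in sets A, B and C. The groups overlapped here too, with non-arthritic spleens 2 and 5 at 7.79 and 8.04. The remaining Bcl2l11 probe sets 1435448_at, 1435449_at and 1456006_at differed by -0.11 (SE 0.05), -0.02 (SE 0.19) and -0.26 (SE 0.16). The suffix _a_at marks probes shared by several transcripts of the gene, and which Bim isoforms each reads was not tested.

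The 3 other BH3-only genes differed little between the groups. Bbc3, the p53 target that encodes Puma, ranged from 8.05 to 9.16 with a median of 8.57 in arthritic and from 7.99 to 9.03 with a median of 8.42 in non-arthritic spleens, with a difference of means of 0.12 (SE 0.09). Pmaip1, which encodes the Mcl1 antagonist Noxa, ranged from 8.86 to 10.70 with a median of 9.79 and from 9.05 to 10.15 with a median of 9.68, a difference of 0.13 (SE 0.13). Bmf, whose product binds a motor complex of the actin skeleton, ranged from 8.76 to 9.81 with a median of 9.29 and from 8.75 to 9.78 with a median of 9.26 by 1454880_s_at, a difference of 0.04 (SE 0.09). The groups overlapped for all of them, and arthritic spleens 14, 16 and 18 lay above every non-arthritic spleen for Pmaip1, at 10.70, 10.32 and 10.30. Within control sets the Bmf difference was -0.28 for set A, 0.36 for set B and -0.03 for set C, and that of Pmaip1 was 0.02, 0.42 and 0.02.

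The effector Bak1, which forms pores in the outer mitochondrial membrane, was lower on average in arthritic spleens. It ranged from 8.64 to 9.80 with a median of 9.06 in arthritic and from 8.28 to 9.86 with a median of 9.48 in non-arthritic spleens, and 2 of 18 arthritic spleens lay above the non-arthritic median. The means were 9.15 ± 0.31 (SD, n = 18) and 9.36 ± 0.44 (SD, n = 18), a difference of -0.21 (SE 0.12). With the control set as a block it was -0.05 (SE 0.09), and within set A it was 0.13. The 4 non-arthritic spleens of set A ranged from 8.28 to 9.21 and the 10 of set B from 8.92 to 9.86.

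Of the survival genes, Bcl2, named for its translocation in B cell lymphoma, had a small difference by its representative 1457687_at. That probe set ranged from 10.05 to 10.94 with a median of 10.60 in arthritic spleens and from 9.96 to 10.96 with a median of 10.54 in non-arthritic spleens, and the means differed by 0.09 (SE 0.09). Another Bcl2 probe set, 1440770_at, ranged from 9.21 to 10.62 with a median of 10.09 against 8.59 to 10.71 with a median of 9.40. Its mean of 9.99 ± 0.44 (SD, n = 18) was 0.61 (SE 0.16) above the 9.38 ± 0.58 (SD, n = 18) of non-arthritic spleens, or 1.53-fold, and 16 of 18 arthritic spleens exceeded the non-arthritic median. The difference was 0.86 within set B, against 0.08 within set A and -0.04 within set C. The other Bcl2 probe sets 1422938_at, 1437122_at and 1443837_x_at differed by 0.28 (SE 0.12), -0.03 (SE 0.12) and 0.60 (SE 0.29), the last with arthritic spleens 12 and 13 at 11.16 and 10.61. The suffix of 1443837_x_at marks probes that may also bind other transcripts.

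Bcl2l1, which encodes Bcl-xL, was lower on average in arthritic spleens by its representative 1420888_at. It ranged from 10.35 to 11.53 with a median of 10.93 in arthritic and from 10.33 to 11.74 with a median of 11.23 in non-arthritic spleens. The means of 10.95 ± 0.27 (SD, n = 18) and 11.17 ± 0.42 (SD, n = 18) differed by -0.22 (SE 0.11), with 3 of 18 arthritic spleens above the non-arthritic median. The sign was not the same in each set: 0.28 for set A, -0.39 for set B and -0.20 for set C. The erythroid marker list was lower by 0.24 in arthritic spleens as well, at 12.55 ± 0.50 (SD, n = 18) against 12.79 ± 0.33 (SD, n = 18), and its part in the Bcl2l1 difference was not tested. The Bcl2l1 probe sets 1420887_a_at and 1426191_a_at differed by 0.00 (SE 0.15) and -0.07 (SE 0.27), and the latter reached down to 4.71 in arthritic spleen 14, the array with the high actin 3' to 5' ratio.

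Mcl1 encodes a short-lived survival protein and was read by 6 probe sets, of which 5 were slightly lower and 1 higher in arthritic spleens. The representative 1437527_x_at ranged from 13.21 to 13.89 with a median of 13.43 in arthritic and from 13.33 to 13.72 with a median of 13.60 in non-arthritic spleens, and the means differed by -0.11 (SE 0.06). The probe sets 1416880_at, 1448503_at, 1456243_x_at and 1456381_x_at differed by -0.14, -0.03, -0.13 and -0.18. All 5 were negative in set A, from -0.46 to -0.11, positive in set B, from 0.12 to 0.21, and negative in set C, from -0.24 to -0.03. In contrast 1416881_at was 0.27 (SE 0.09) higher, with 16 of 18 arthritic spleens above the non-arthritic median, and its difference was 0.06, 0.18 and 0.18 in sets A, B and C. The representative 1437527_x_at, and also 1456243_x_at and 1456381_x_at, carry the suffix that marks probes that may also bind other transcripts.

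The control sets, which were not used to choose the members, were tested with the group as a term. Between the 3 sets, 19 of 26 member probe sets differed in limma's F test (adjusted p under 0.05 over all 27022), beside 48.1% of all tested probe sets. Of the 9 representatives 5 did, and the share among the representatives of all genes is not given here. The largest shifts against set A were in Bcl2l1 1426191_a_at, lower by 1.31 (SE 0.23) in set B, and in Bcl2l11 1456005_a_at, higher by 1.16 (SE 0.27) in set C. Bak1 was 0.53 (SE 0.10) higher in set B and 0.71 (SE 0.12) higher in set C than in set A. Bid 1417045_at was lower by 0.21 (SE 0.07) in set B and by 0.22 (SE 0.09) in set C, and 1448560_at by 0.88 (SE 0.10) and 0.61 (SE 0.12), while 1447873_x_at was 0.58 (SE 0.18) higher in set B. Bbc3, Bmf and the representatives of Bcl2 and Mcl1 did not pass. The number of sets decides the count of 19, which was 2 of 26 with 2 sets and 18 with 4. The shares of all tested probe sets with 2 and 4 sets are not given here. Nothing particular to the members is read from these 2 counts.

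**Figure D3:**
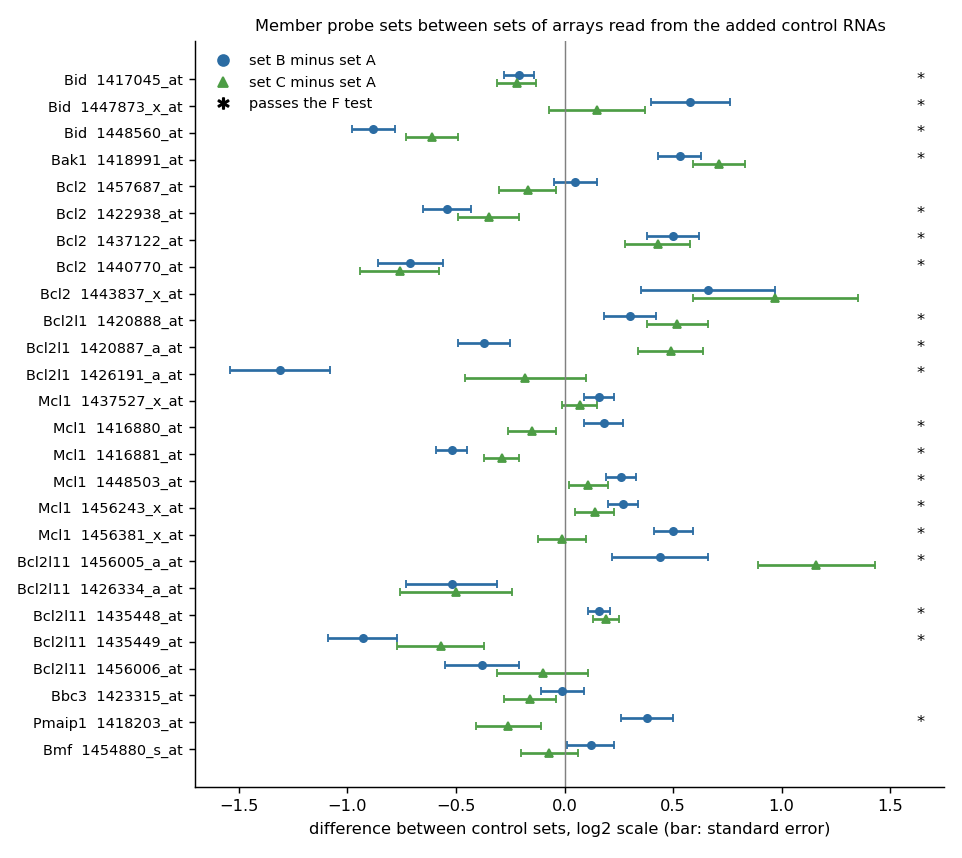
Difference of each tested member probe set between control sets (B minus A, circles; C minus A, triangles; log2 scale, bars of 1 standard error), with a star at those that pass the F test over the 3 sets. Stars stand at 19 of 26, and probe sets of 1 gene often lie on opposite sides of 0, as for Bid and Bcl2l11.

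Probe sets of 1 gene shifted in opposite directions between sets. Among the 6 of Mcl1, 1416881_at was lower in set B by 0.52 (SE 0.07) while 1456381_x_at was higher by 0.50 (SE 0.09). Among the 5 of Bcl2, 1422938_at and 1440770_at were lower in set B by 0.54 (SE 0.11) and 0.71 (SE 0.15), and 1437122_at was higher by 0.50 (SE 0.12). Of the Bcl2l11 probe sets, 1435449_at was lower by 0.93 (SE 0.16) in set B and 1435448_at higher by 0.16 (SE 0.05). The Gapdh ratio also differed between the sets, as given above, and its part in these shifts was not tested.

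A dependence of the group difference on the control set was tested as an interaction in limma, and 0 of 26 member probe sets passed an adjusted p of 0.05, beside 0.037% of all tested. At an unadjusted p under 0.05 the count was 10 of 26, beside 16.7% of all tested. Simulated arrays showed that this test found 45 of 100 probe sets whose difference changed by 1 between sets and 88 of 100 at a change of 2.

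The spread between mice of a group was compared as absolute deviations from the group median, and 0 of 26 member probe sets passed limma's adjusted p of 0.05, as did 0% of all tested. At an unadjusted p under 0.05 there were 3, beside 7.66% of all tested. Bid 1417045_at deviated less in arthritic than in non-arthritic spleens, by -0.12 (SE 0.04), while Bcl2 1437122_at and Bcl2l1 1426191_a_at deviated more, by 0.18 (SE 0.08) and 0.40 (SE 0.19). The control set was not a term here, so shifts between sets count as spread. In arthritic spleens 1426191_a_at averaged 7.98 in set A and 6.23 in set B, and 1437122_at 9.3 and 10.06. Bid 1417045_at averaged 10.38, 10 and 10.01 in the non-arthritic spleens of sets A, B and C, and 10.48, 10.39 and 10.36 in the arthritic. Bid was chosen by the group contrast of these same values, so its spread is a description and nothing is read from it. The part of the sets in these values was not tested. On simulated arrays this test found 2 of 100 probe sets given 2 times the SD in 1 group and 22 of 100 given 3 times, so smaller changes in spread were not detectable with this number of arrays.

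Agreement between probe sets of a gene was read as Pearson's r over the 36 arrays after each value was centred within its group and control set. The pair 1417045_at and 1448560_at of Bid had an r of 0.43, and 0.68 without centring. The third Bid probe set followed neither, with r of 0.01 and -0.03. The 15 pairs of Mcl1 probe sets were all positive, from 0.14 to 0.96 with a median of 0.63, and the lower values belonged to 1416881_at, whose 5 pairs were negative without centring, from -0.51 to -0.18. Bcl2 pairs ran from -0.12 to 0.84 with a median of 0.39 over 10 pairs, with the highest between 1437122_at and the representative 1457687_at. The 3 Bcl2l1 pairs had r of 0.14 to 0.39. Of the 10 Bcl2l11 pairs, the 3 among 1456005_a_at, 1456006_at and 1435449_at had r of 0.75 to 0.83, whereas 1435448_at had r between -0.05 and 0.02 with all others. All arrays were scaled to the same trimmed mean, and these r values are descriptions.

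Co-variation between members across mice was tested on the representative probe sets with the same centring, by a two-sided permutation test within group and set. Of 36 pairs, 6 passed an adjusted p of 0.05, 3 positive and 3 negative, and Bcl2l1 was in 4 of them. An absolute r of at least 0.47, that of the weakest of these 6, was found for 7 of the 36 pairs (19.4%) and for 4.81% of all pairs of 12367 other genes. The survival gene Mcl1 and the BH3-only gene Bmf varied together, with r = 0.60 (permutation p = 0.00027, adjusted p = 0.0063) and Spearman's rho = 0.60 (permutation p = 0.00041). Without the 2 spleens whose Mcl1 level before centring lay farthest from its median, r was 0.63. The 2 farthest spleens named below were chosen in the same way. In a pair of members the choice used the one that comes first in the opening list. These spleens need not be the ones farthest out after centring. Within sets A, B and C the r of Mcl1 and Bmf was 0.73, 0.48 and 0.67. By their representative probe sets both genes are thus high in the same spleens in each set. The Mcl1 representative carries the suffix _x_at, so its probes may also bind other transcripts. The part of such binding in its r values, here and with the cell lists below, was not tested. The only tested Bmf probe set ends in _s_at, and which transcripts it binds was not tested. Bcl2 and Mcl1 also varied together, with r = 0.47 (permutation p = 0.00672, adjusted p = 0.0403) and rho = 0.52 (permutation p = 0.00238), and r was 0.49 without the 2 farthest spleens, but it was 0.19 in set B and the pair passed in only 17 of the 36 runs that each left out 1 array.

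Bcl2l1 ran against the survival gene Mcl1 and against the BH3-only genes Bmf and Pmaip1. With Bmf its r was -0.59 (permutation p = 0.00035, adjusted p = 0.0063; rho = -0.60, permutation p = 0.00039), and within sets A, B and C it was -0.56, -0.60 and -0.67. With Mcl1 it was -0.54 (permutation p = 0.002, adjusted p = 0.018; rho = -0.52, permutation p = 0.00378), and with Pmaip1 -0.51 (permutation p = 0.00304, adjusted p = 0.0219; rho = -0.46, permutation p = 0.00925, which did not pass after adjustment, at 0.0555). Without the 2 farthest spleens these r values were -0.57, -0.51 and -0.51. The r with Mcl1 was -0.64, -0.46 and -0.59 in sets A, B and C, and that with Pmaip1 -0.49, -0.46 and -0.67. Bak1 was the 1 member with a positive relation to Bcl2l1 that passed, with r = 0.58 (permutation p = 0.00173, adjusted p = 0.018; rho = 0.60, permutation p = 0.00077), 0.55 without the 2 farthest spleens, and 0.52, 0.51 and 0.97 within the sets. With the Gapdh 3' to 5' ratio, centred alike, Bak1 had an r of 0.46 and Bcl2l1 0.56, and the part of that ratio in this pair was not tested. With all tested probe sets of each gene averaged in place of the representative, 4 pairs passed. Leaving out 1 array at a time gave between 3 and 7 pairs. The count was 3 without non-arthritic spleen 6 and 4 without arthritic spleen 13, and the pairs of Bcl2l1 with Bmf and Bak1 and of Mcl1 with Bmf passed in all 36 runs.

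Bid was in none of the pairs that passed. Its highest r were 0.33 with Bmf (permutation p = 0.0758, adjusted p = 0.219) and 0.32 with Mcl1 (permutation p = 0.0792, adjusted p = 0.219), and its lowest -0.30 with Bcl2l11 (permutation p = 0.132, adjusted p = 0.318). With Mcl1 the r was 0.75 in set A, 0.60 in set B and -0.71 in the 7 arrays of set C. Bcl2l11 and Bbc3 were likewise in no pair that passed.

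To see which cells the members vary with, each was set against the mean level of 9 lists of cell marker genes with the same centring. Of 81 pairs, 26 passed an adjusted p of 0.05, 12 positive and 14 negative. Bmf passed with 6 of 9 lists, Bcl2, Bcl2l1 and Mcl1 with 5 each, Pmaip1 with 3 and Bak1 with 2, while Bid, Bcl2l11 and Bbc3 passed with 0. At an unadjusted p under 0.05 the count was 29 of 81, or 35.8%, beside 24.9% for 12367 other genes against the same lists. A p no larger than 0.0107, the largest that passed, was reached by the 26 (32.1%) and by 13.9% of the pairs of other genes. Relations with these lists were thus common among genes of these spleens, and nothing particular to the family is read from the count. The count fell to 10 without non-arthritic spleen 6, a spleen with pancreatic transcripts, and to 17 without non-arthritic spleen 12. Without the 3 pancreas-bearing spleens and the array with the high actin ratio it was 9, all of which were among the 26.

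Bcl2l1 followed the red cell and dividing cell lists. With the cycling list (6 of 7 markers tested, such as Mki67 and Top2a) its r was 0.77 (permutation p = 4e-05, adjusted p = 0.00202; rho = 0.64, permutation p = 0.0003), 0.71 without the 2 farthest spleens and 0.83, 0.70 and 0.81 within sets A, B and C. With the erythroid list (7 of 8 markers, such as Alas2 and Klf1) it was 0.76 (permutation p = 5e-05, adjusted p = 0.00202; rho = 0.69, permutation p = 7e-05), 0.71 without the 2 farthest and 0.86, 0.70 and 0.70 within the sets. Spleens with more erythroid RNA for their group and set thus had more Bcl2l1 RNA in each set. With the neutrophil list r was 0.62 (permutation p = 0.00058, adjusted p = 0.0109; rho = 0.59, permutation p = 0.00092), and 0.60 without the 2 farthest spleens. In the same order as named here, the r over the 32 spleens left without those 4 arrays were 0.72, 0.68 and 0.56, and all passed. With the T cell list Bcl2l1 had an r of -0.54 (permutation p = 0.00094, adjusted p = 0.0126, rho = -0.5, permutation p = 0.00404). That r was -0.48 without the 2 farthest spleens and -0.57, -0.48 and -0.61 within the sets. Without the 4 arrays it was -0.55 and passed. The Bcl2l1 representative also had an r of 0.56 with the Gapdh 3' to 5' ratio, whose part in these relations was not tested. The other Bcl2l1 probe sets, 1420887_a_at and 1426191_a_at, had lower r with the erythroid list, 0.34 and 0.25, and with the cycling list, 0.48 and 0.16. With the T cell list theirs were -0.19 and -0.3.

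Mcl1, Bcl2 and Bmf had, with the neutrophil or the erythroid list, relations of the opposite sign to those of Bcl2l1. Mcl1 had an r of 0.59 with the T cell list (6 of 7 markers; permutation p = 0.00016, adjusted p = 0.00432; rho = 0.59, permutation p = 0.00025), which was 0.56 without the 2 farthest spleens, 0.83, 0.49 and 0.45 within sets A, B and C, and 0.54 without the 4 arrays. With the neutrophil list (7 of 7 markers) Mcl1 had an r of -0.55 (permutation p = 0.00145, adjusted p = 0.0126; rho = -0.55, permutation p = 0.00177), which was -0.53 without the 2 farthest spleens, -0.16, -0.72 and -0.80 within the sets and did not pass without the 4 arrays. The r of Bcl2 with the erythroid list was -0.56 (permutation p = 0.00067, adjusted p = 0.0109; rho = -0.52, permutation p = 0.00297), -0.42 without the 2 farthest spleens, -0.73, -0.43 and -0.11 within the sets, and -0.42 without the 4 arrays. Bmf had an r of -0.54 with the neutrophil list (permutation p = 0.00273, adjusted p = 0.0151; rho = -0.56, permutation p = 0.00168), which was -0.49 without the 2 farthest spleens and -0.35, -0.61 and -0.85 within the sets, and it did not pass without the 4 arrays. Bak1, in contrast, was positive with the neutrophil list, with r = 0.58 (permutation p = 0.00221, adjusted p = 0.0138; rho = 0.51, permutation p = 0.00649), 0.54 without the 2 farthest spleens, 0.65, 0.46 and 0.79 within the sets and 0.62 without the 4 arrays.

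**Figure D4:**
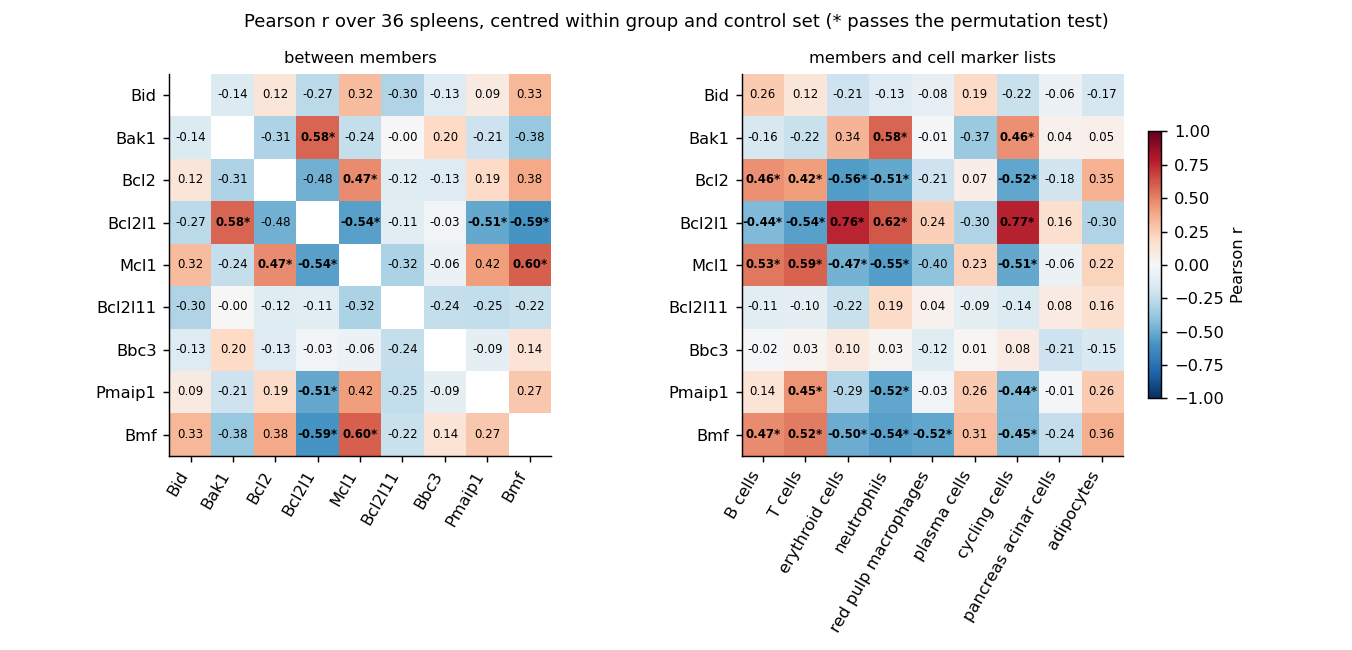
Pearson's r over 36 spleens, centred within group and control set, between the 9 measured members (left) and between members and 9 cell marker lists (right), on a colour scale from -1 to 1 with a star where the permutation test passes after adjustment. Stars mark 6 of 36 and 26 of 81 pairs; the rows of Bid, Bcl2l11 and Bbc3 carry none.

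The other probe sets of these genes mostly had the same sign. All 6 Mcl1 probe sets were positive with the T cell list, from 0.36 to 0.59, and negative with the erythroid list, from -0.50 to -0.17. All 5 Bcl2 probe sets were positive with the B cell list, from 0.30 to 0.72, the highest being 1440770_at, whose group difference is given above and whose list relations were not tested. The B cell list itself averaged 12.28 in arthritic and 12.14 in non-arthritic spleens, a difference of 0.14, and its part in the Bcl2 values was not tested.

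Bid, like Bcl2l11 and Bbc3, had no list relation that passed. Its r was 0.26 with B cells (permutation p = 0.149, adjusted p = 0.303), 0.12 with T cells (permutation p = 0.508, adjusted p = 0.709) and -0.21 with erythroid cells (permutation p = 0.127, adjusted p = 0.279), and over all 9 lists it lay between -0.22 and 0.26. That no relation passed does not show that there is none. The second Bid probe set had its highest r with red pulp macrophages, at 0.41, and the third its lowest with B cells, at -0.45, neither of which was tested.

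**Figure D5:**
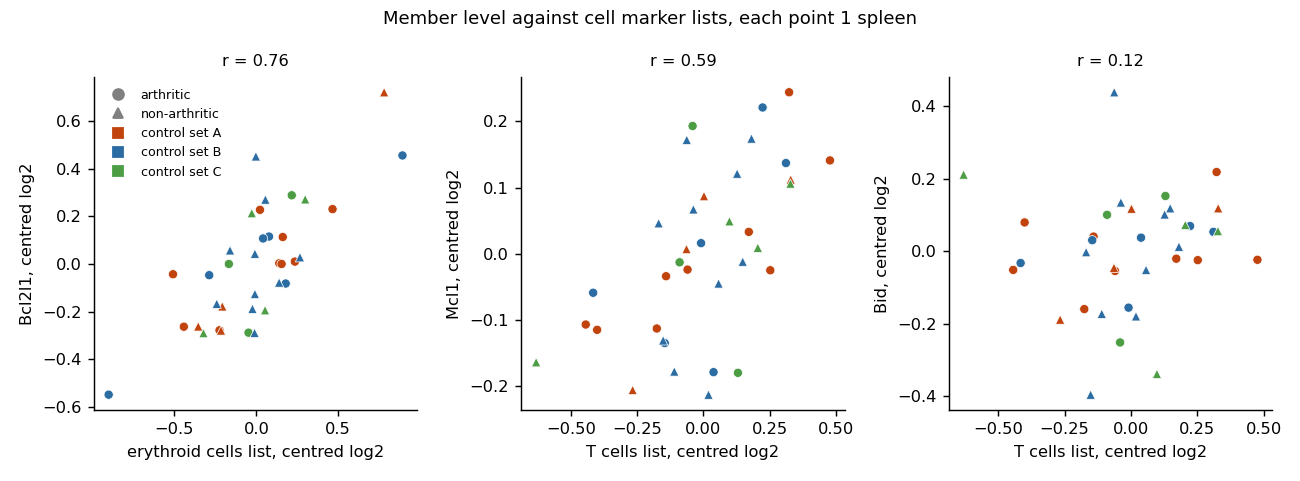
Member level against the mean level of a cell marker list in each spleen, both centred within group and control set (log2), with circles for arthritic and triangles for non-arthritic mice and colours for the sets. Bcl2l1 climbs with the erythroid list (r = 0.76) and Mcl1 with the T cell list (r = 0.59), while Bid is scattered against the T cell list (r = 0.12).

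The genes whose pattern over the 36 spleens was most like that of Bid 1417045_at were sought among 12418 genes by the same centred r, as a description. They were Lrrc8d, a subunit of volume-regulated anion channels, with 0.65, Cep68, a centrosome protein, with 0.62, Slc6a13, a transporter of GABA, with 0.61, Ankdd1b with 0.61, and Evi2a and the interferon-inducible Ifi203 with 0.60 each. Farthest from it were Dysf, which encodes the membrane repair protein dysferlin, with -0.63, and Mad2l1bp and the small GTPase gene Rab18 with -0.62 each. The likeness did not carry over to the second Bid probe set, with which the first 6 genes had r between -0.12 and 0.32. Ifi203 alone of the 6 had a higher r without centring, 0.75.

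The wider pathway was read from 58 further genes in 8 lists, of which 46 had a tested probe set. In arthritic against non-arthritic spleens 22 differences were positive and 22 negative, with a median of 0, and 0 passed limma's adjusted p of 0.05, beside 0.0483% of 12427 genes that passed as higher. At an unadjusted p under 0.05 there were 8, beside 14.4% of all genes. By the Wilcoxon rank-sum test 0 passed after adjustment and 7 before, and the share of all genes by that test is not given here.

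Upstream of Bid, Casp8, the protease that cuts it, was 0.21 (SE 0.07, limma adjusted p = 0.168) higher, with 16 of 18 arthritic spleens above the non-arthritic median, and the death ligand gene Tnfsf10 (TRAIL) was 0.25 (SE 0.11, adjusted p = 0.246) higher. Of that list of 10, 8 were tested, with 6 positive. Among other proteases known to cleave Bid, Capn1 differed by -0.15 (SE 0.10, limma adjusted p = 0.458) and Ctsl by 0.09 (SE 0.08, adjusted p = 0.618). Neither list had a gene that passed. With the control set as a block the differences were 0.13 for Casp8 and 0.15 for Tnfsf10, and these were 0 for Casp8 within set A and -0.02 for Tnfsf10 within set B.

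Among further family members, the survival gene Bcl2l2 differed by -0.16 (SE 0.07, limma adjusted p = 0.267), and Bcl2l13 and Bcl2l14 by -0.22 (SE 0.10, adjusted p = 0.253) and 0.23 (SE 0.20, adjusted p = 0.59). Across spleens Bcl2l13 had the lowest centred r with Bid of the 46 genes, -0.51, and the inhibitor of apoptosis gene Birc6 the highest, 0.45. Downstream, Mtch2, the mitochondrial receptor of cleaved Bid, differed by 0.14 (SE 0.09, limma adjusted p = 0.446) and the channel gene Vdac1 by -0.12 (SE 0.09, adjusted p = 0.521). The executioner caspase gene Casp6 differed by 0.17 (SE 0.07, limma adjusted p = 0.192) and the caspase substrate Parp1 by 0.20 (SE 0.09, adjusted p = 0.253). Of the inhibitors of apoptosis, Xiap differed by -0.13 (SE 0.06, limma adjusted p = 0.308) and Birc5, a gene of dividing cells, by -0.25 (SE 0.14, adjusted p = 0.386). The transcription factor genes Foxo1 and Foxo3, which act upstream of Bim, differed by -0.29 (SE 0.13, limma adjusted p = 0.274) and -0.23 (SE 0.15, adjusted p = 0.446).

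With the control set as a block most of these pathway differences were smaller. Those of Mtch2 and Vdac1 became 0.02 and -0.03, and that of Mtch2 was -0.11 within set B. Casp6 and Parp1 became 0.11 each, Xiap -0.04 and Birc5 -0.14, with Birc5 at 0.39 within set A. Foxo1 and Foxo3 became -0.10 and -0.13, Bcl2l14 0.08 and Ctsl 0.05. The differences of Bcl2l2, Bcl2l13 and Capn1 stayed near their size, at -0.18, -0.26 and -0.15.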

How the data were processed

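Spleen RNA was prepared with Trizol and put on the arrays with a biotin label, per the labels' protocols. The deposited values are linear microarray intensity made by the authors with MAS5, per the submitters' processing notes; each array had a trimmed mean of 500.0 (2% off each end), medians ran from 110.6 to 183.2 and values from 0.103 to 67960. Intensities were taken as log2(value + 16). After 64 control probe sets, those with a mean below the 40th percentile (6.49) were left out. Of the probe sets, 34945 name 1 gene. The probe set with the highest mean represents a gene.

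limma 3.58.1 (R 4.3.3) was fitted over 27022 probe sets (trend, Benjamini-Hochberg, threshold 0.05). Control sets are Ward clusters of 18 hybridisation control probe sets, their number set after the data were seen. Correlations used 100000 permutations, adjusted over 36 or 81 pairs, and 20000 for other genes against the lists. On simulated arrays the group test found 68 of 100 shifts of 0.5 and 94 of 100 of 1, and the control set test 54 and 93. The simulated noise was independent, with the SD left within group and control set, and no other control set differences were added. Tests without a control set term may therefore find fewer changes in the measured arrays. Permutations and figures used numpy 2.4.6 and matplotlib 3.10.9 in Python 3.11.15.

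Members and lists were chosen with earlier results of these data known. Named are all members, the 6 genes most and 3 least like Bid, up to 2 genes with the smallest p in each pathway list, and every correlation that passed or, above 8, the 8 largest. Bcl2l1 with the T cell list was added later, since its absolute r equals that of the last of these 8 when rounded. Members' other probe sets with list relations, and single spleens, were named after their values were seen. Replicates are separate mice only as far as the labels call them individual spleens, and the design text counts the animals differently from its own group sizes.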

Additional observations from a re-analysis of the deposited data

How the results depend on the processing

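In 58 of 70 other settings, besides those leaving out 1 array, the value stayed near that of the main setting. For a difference or an r this meant the same sign and a set margin around the main value, and for a count within 1.5 times. Passing a threshold was not part of this rule, which does not say which pairs or probe sets passed. The 58 include counts that were 0 and stayed 0, in 9 settings for pathway genes, 6 for the interaction and 5 for spread. The count of member probe sets passing in arthritic against non-arthritic spleens stayed near its main value in 2 of 9. The number of member probe sets passing in arthritic against non-arthritic spleens was 1; it became 0 with quantile normalisation, no filter, no trend, the control set as a block and the Wilcoxon test, 3 without the 4 arrays, and 0 to 4 with 1 array left out. At an unadjusted p under 0.05 it was 9 by limma (15.7% of all tested), 12 by the Wilcoxon test and 8 with the block (11.9% of all); this contrast chose the family, and nothing is read from these counts. The replicate number as a block gave 3 (Bid 1417045_at and 1448560_at, Bcl2 1440770_at) and 369 of 27022 overall. Whether the numbers pair the mice could not be decided. Of 18 same-numbered pairs, 11 had an r above 0.1 (median 0.15), while 2 arthritic spleens were most like their own number. These r were centred within group only, so a control set shared by same-numbered arrays could enter them. The Bid difference was 0.31 to 0.37 with 1 array left out and reversed to -0.12 by the probe set 1447873_x_at. Member probe sets differing between control sets numbered 2 with 2 sets, and 18 to 20 with 1 array left out, without the share of all tested probe sets at these settings. Member pairs numbered 14 when centred within group only, 10 with 2 sets, and 3 to 7 with 1 array left out. Pairs of members and cell lists numbered 9 without the 4 arrays and 10 to 27 with 1 left out. The interaction could not be fitted with 4 sets, since 1 set lacks a group. The exclusion of 4 arrays was chosen after the data were seen, and the cause of these shifts was not tested. The number of arrays and dim probe sets limit the precision.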
